A study of Homo sapiens with 6 samples.

Results

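Olfactory receptor genes encode the G protein-coupled receptors with which sensory neurons of the nose detect odorants. They form the largest gene family of mammals and lie in dense arrays on many chromosomes. Each olfactory neuron expresses a single receptor allele, and in other tissues the arrays are largely silent. In most cells they belong to compartment B, the closed part of the genome that replicates late and tends to lie near the nuclear lamina. The 13 clusters described here are fixed windows on the human build hg19 (GRCh37) over 8 chromosomes, set by position without a threshold on any measured value. They held 540 of the 140474 bins of 20 kb that carried a compartment score in both cell lines, and every bin of every window had a value.

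The values come from Hi-C, which joins and sequences DNA ends that lie close together in cross-linked nuclei. DKO1 is a derivative of HCT116 with knockout of the DNA methyltransferase genes DNMT1 and DNMT3B, and HCT116 is the established human colorectal cancer line from which it was made. Each line had 3 libraries without treatment, grown in the same medium, and whether DKO1 is 1 clone is not given in the sources used here. The 3 libraries of a line were represented by 1 pooled track and 1 pooled domain list, so no value has a replicate error and no test between the lines was possible. Every difference below is a difference between these 2 maps, neighbouring bins are not independent, and no p-value is given. The deposited score, PC1, is the first principal component of the contact map. It was scaled to a mean of 0 and an SD of 1 within each chromosome, with positive values taken as compartment A and negative values as compartment B. The files hold no contact counts, so the depth behind each value is unknown.

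The windows were set against the order of coding genes in RefSeq (GRCh38.p14), by chromosome and gene order and not by coordinate, because that table is on another build than the Hi-C files. In that order 15 arrays corresponded to the 13 windows and held 278 of the 392 coding olfactory receptor genes. The window chr1:247600001-248900000 corresponds to an array of 43 receptor genes, mainly of family OR2, between NLRP3, an inflammasome sensor, and LYPD8. The window chr6:29000001-29600000 corresponds to 14 genes, also mainly OR2, beside GABBR1, a GABA receptor gene at the edge of the major histocompatibility region. At chr7:143600001-144100000 the array has 11 genes, nearly all OR2. On chromosome 9 an array of 8 OR13 genes corresponds to chr9:107200001-107500000, and an array of 14 genes, mainly OR1, to chr9:125200001-125600000.

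Chromosome 11 holds 5 of the windows. The window chr11:4300001-5200000 corresponds to 26 OR51 and OR52 genes, an array that ends beside HBB, the gene of beta-globin. On the other side of the globin genes, chr11:5300001-6300000 corresponds to a pair of arrays with 11 and 18 genes of families OR51, OR52 and OR56, separated by TRIM5, TRIM6, TRIM34 and TRIM22, which encode antiviral restriction factors and their relatives. The window chr11:55000001-56600000 corresponds to the longest array, 48 genes mainly of families OR4, OR5 and OR8, near the centromere. At chr11:57700001-59400000 there are also 2 arrays, of 13 and 8 genes with OR5 and OR4 as the most frequent families, with LPXN, ZFP91, CNTF and the glycine acyltransferase genes among those between them. The last, chr11:123600001-124500000, corresponds to 22 genes mainly of families OR8 and OR10. The remaining windows are chr12:55500001-56000000 with 15 genes, mainly OR6, chr14:20200001-20800000 with 16 OR4 and OR11 genes, and chr17:2900001-3400000 with 11 OR1 and OR3 genes. Clusters are named below by chromosome and by their leading families.

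Since DNA methylation acts at CG dinucleotides, the promoters of these genes are shown first. The stretches called promoters here run from 250 bases before to 50 after a start listed in RefSeq on GRCh38.p14. They were available for 226 of the 278 genes, with 234 starts. The dinucleotide CG, which reads the same on both strands, occurred with a median of 1 copy per receptor promoter (quartiles 1 and 2). Over the 22199 promoters of coding genes in the same table the median was 21 (quartiles 7 and 31). At least 1 CG was present in 80.8% of the receptor promoters, in 98.0% of coding promoters and in 96.0% of all promoters of the table, coding or not. At most 3 CG were present in 91.5% of receptor promoters but in 14.5% of coding promoters. The median GC content was 37% in the receptor promoters and 62.3% in those of coding genes. These are counts of letters, and no methylation was measured in the files used here.

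The first 2 sequences below are the promoters of median CG count in the cluster of lowest PC1 and in a cluster that kept its domain in both lines, and the last is the receptor promoter with the most CG, shown for contrast and chosen after the counts were seen. Capitals mark CG. OR5M11, of the chromosome 11 OR4/OR5/OR8 cluster, lies at chr11:56543208-56543507 on the minus strand of GRCh38.p14 and has 1 CG. OR1L4, of the chromosome 9 OR1 cluster, lies at chr9:122723740-122724039 on the plus strand and also has 1 CG. OR3A2, of the chromosome 17 cluster, lies at chr17:3386259-3386558 on the minus strand and has 39 CG. Whether these CG lie in a promoter of OR3A2 or in the body of a gene on the opposite strand was not tested.
OR5M11: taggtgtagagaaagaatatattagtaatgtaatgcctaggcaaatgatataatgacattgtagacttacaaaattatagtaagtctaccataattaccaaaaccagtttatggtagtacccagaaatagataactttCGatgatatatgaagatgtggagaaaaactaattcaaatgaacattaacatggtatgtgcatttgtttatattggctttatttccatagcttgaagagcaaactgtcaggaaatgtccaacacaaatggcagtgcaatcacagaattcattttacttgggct
OR1L4: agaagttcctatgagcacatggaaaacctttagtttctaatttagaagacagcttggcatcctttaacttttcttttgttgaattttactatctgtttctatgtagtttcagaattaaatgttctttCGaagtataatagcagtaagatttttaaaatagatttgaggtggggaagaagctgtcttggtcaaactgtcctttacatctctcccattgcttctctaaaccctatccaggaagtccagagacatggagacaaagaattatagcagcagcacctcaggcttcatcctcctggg
OR3A2: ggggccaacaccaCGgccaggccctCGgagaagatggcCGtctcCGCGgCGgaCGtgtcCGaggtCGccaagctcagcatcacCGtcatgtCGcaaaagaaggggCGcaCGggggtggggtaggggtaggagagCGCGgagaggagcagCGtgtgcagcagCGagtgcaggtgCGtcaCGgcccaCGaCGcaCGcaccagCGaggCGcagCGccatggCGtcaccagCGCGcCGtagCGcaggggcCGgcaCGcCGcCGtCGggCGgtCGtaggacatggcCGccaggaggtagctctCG

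The clusters lay mainly in compartment B in both lines. In DKO1 452 of the 540 bins were in B, or 83.7%, against 474 bins, or 87.8%, in HCT116. The same share over all autosomal bins was 50.8% in DKO1 and 46.3% in HCT116. Mean PC1 over the cluster bins was -0.66 in DKO1 and -0.88 in HCT116, and the medians were -0.81 and -1.09. Bins below -1, which lie deep in B, made up 36.7% of the cluster bins in DKO1 and 54.8% in HCT116, against 19.5% and 20.6% of all autosomal bins. The clusters were thus found deeper in B than the autosomes as a whole in both lines, and by more in HCT116. Cluster means ranged in DKO1 from -1.37 for the OR4/OR5/OR8 cluster to 0.49 for the chromosome 7 cluster, and in HCT116 from -1.41 for the OR4/OR5/OR8 cluster to 0.27 for the chromosome 6 cluster. In DKO1 10 clusters had a mean below 0 and in HCT116 11 did.

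**Figure D1:**
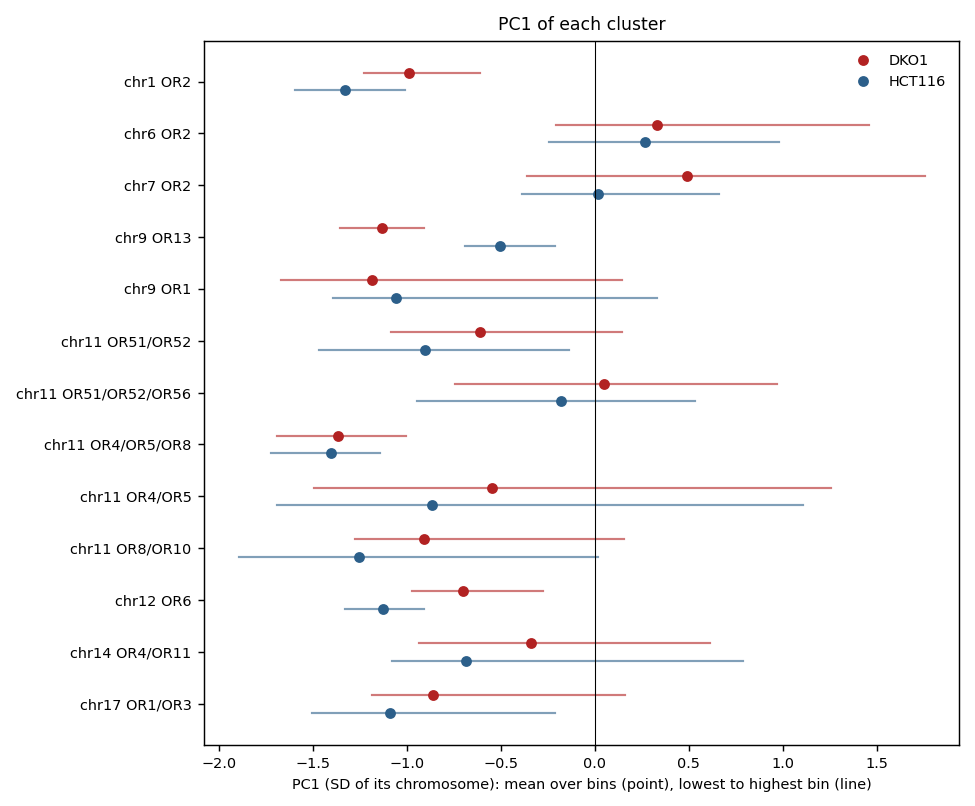
Mean PC1 of each of the 13 clusters (point, in SD of its chromosome) with its lowest and highest bin (line), DKO1 above HCT116 in each row. The DKO1 mean lies to the right of the HCT116 mean in 11 clusters and to the left in the 2 clusters of chromosome 9, of which OR1 took the other order under another zero.

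Most clusters formed a trough of low PC1 between less negative or positive flanks. Over 500 kb on each side, with bins of other clusters left out, 12 of the 13 clusters were lower than the mean over both flanks in each line. The mean difference between cluster and flanks was -0.89 ± 0.61 in DKO1 and -0.97 ± 0.64 in HCT116 (SD over 13 clusters). The exception in both lines was the chromosome 7 cluster, which lay 0.50 above the mean of its flanks in DKO1 and 0.44 above in HCT116. This cluster lay on a slope, with means of 0.49 in DKO1 and 0.018 in HCT116. Its left flank was higher, at 1.07 and 0.10, and its right flank lower, at -0.74 and -0.78. The deepest troughs were those of the OR8/OR10 cluster of chromosome 11, with -1.67 in DKO1 and -1.84 in HCT116, and of the chromosome 9 OR1 cluster, with -1.60 and -1.82. Among the 12 clusters, the smallest differences were those of the OR4/OR5/OR8 cluster, with -0.40 in DKO1 and -0.31 in HCT116, and of the OR13 cluster, with -0.33 and -0.46. The flanks of the OR4/OR5/OR8 cluster had mean PC1 values of -0.96 in DKO1 and -1.10 in HCT116, and those of the OR13 cluster -0.80 and -0.041. The OR13 cluster was not a trough with 2 sides. Its left flank, at -1.14 in DKO1 and -0.46 in HCT116, was close to the cluster means of -1.13 and -0.50. Only its right flank was clearly higher, at -0.46 and 0.38. Left of the OR51/OR52/OR56 cluster, only 5 bins outside other clusters counted, with means of 0.18 in DKO1 and -0.24 in HCT116. The cluster means were 0.050 and -0.18, so in HCT116 the left side was not higher than the cluster. Its right flank was higher in both lines, at 1.24 in DKO1 and 0.91 in HCT116.

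**Figure D2:**
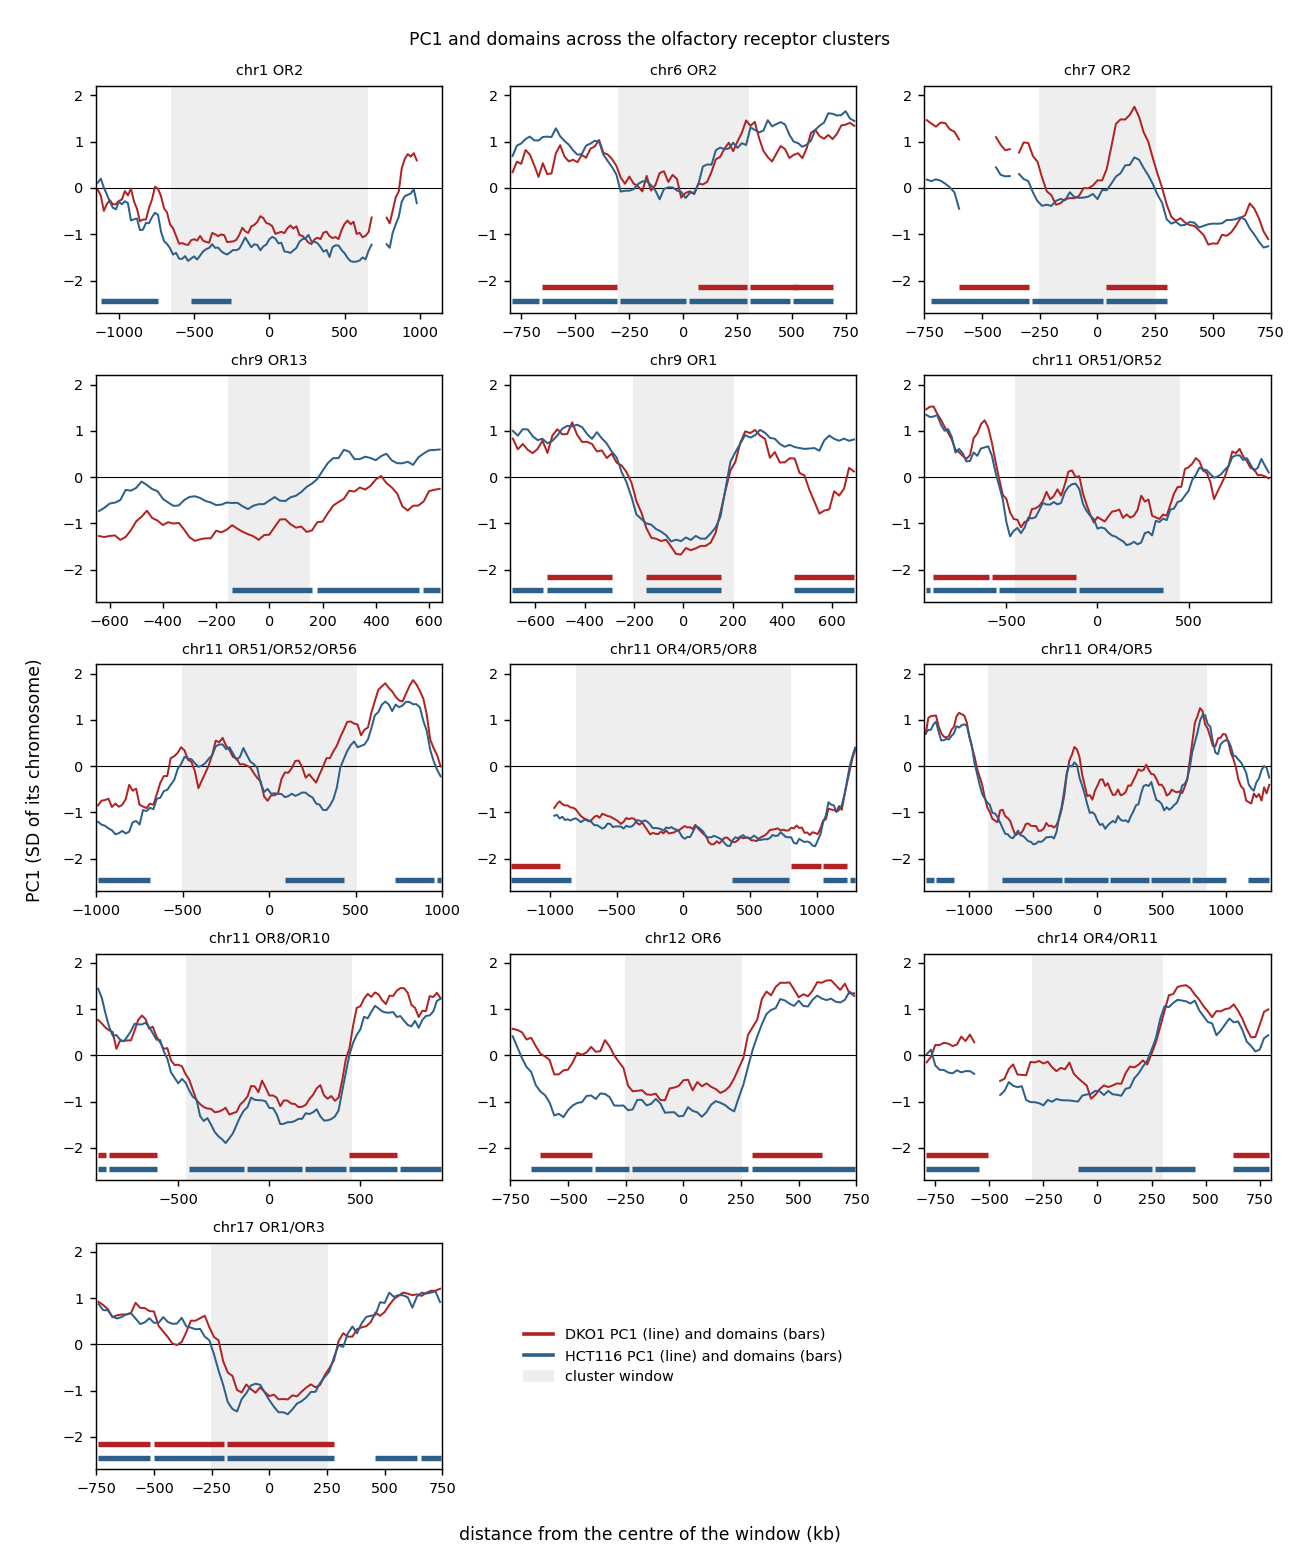
PC1 (in SD of its chromosome) of 20 kb bins across each window (grey) and 500 kb on either side, against the distance from the window's centre in kb, for DKO1 (red) and HCT116 (blue), with the domains of each line as bars under the curves (DKO1 above HCT116). Breaks in a line are bins without a value in both tracks. The curves of the chromosome 9 OR1 cluster have the same shape, with r = 0.96 inside the window, and in the OR13 cluster the DKO1 curve lies below the HCT116 curve at every bin of the window.

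Of the long uniform clusters, the OR4/OR5/OR8 cluster had the lowest PC1 in both lines. All 80 of its bins were below -1 in each line, with a range of -1.69 to -1.01 in DKO1 and -1.72 to -1.14 in HCT116. Its mean differed by 0.039 between the lines, the smallest difference of the 13 on the deposited scale, and by 0.25 with the median of each chromosome subtracted, when chromosome 6 and OR1 differed by less. The chromosome 1 cluster was below -1 over its whole 1300 kb in HCT116, with a mean of -1.33, but in 35 of its 65 bins in DKO1, with a mean of -0.99. Its DKO1 range, -1.23 to -0.61, overlapped the HCT116 range of -1.60 to -1.01, and 62 of the 65 bins were higher in DKO1. The chromosome 12 OR6 cluster had 0 of 25 bins below -1 in DKO1 and 20 in HCT116. Each of its 25 bins was higher in DKO1, with means of -0.70 in DKO1 and -1.13 in HCT116. Within these clusters the bins of the 2 lines followed each other to unlike degrees, with a Pearson r across bins of 0.75 in the OR4/OR5/OR8 cluster, 0.086 on chromosome 1 and -0.13 on chromosome 12.

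The clusters on chromosome 9 were the only ones with a lower mean in DKO1 on the deposited scale, and for one of them the sign depended on the zero. In the OR13 cluster the mean was -1.13 in DKO1 and -0.50 in HCT116, and all 15 bins were lower in DKO1, without overlap between the range of -1.36 to -0.91 in DKO1 and that of -0.69 to -0.21 in HCT116. Its flanks were also lower in DKO1, by a mean difference of -0.76, so the difference was not limited to the window. The OR1 cluster had means of -1.19 in DKO1 and -1.06 in HCT116, with 17 of 20 bins lower in DKO1. Its profile was otherwise shared, with r = 0.96 over the 20 bins, and its flanks differed by -0.36. Its difference of -0.13 became 0.060 when the median of each chromosome was subtracted and 0.068 when a 10 Mb running mean was subtracted, while that of the OR13 cluster stayed negative at -0.435 and -0.22.

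The OR51/OR52 cluster, which runs up to the beta-globin gene, was in B over all 45 bins in HCT116 and over 42 in DKO1. Its means were -0.61 in DKO1 and -0.90 in HCT116, and 43 bins were higher in DKO1. The stretch chr11:4740001-5060000, below -1 throughout in HCT116, had means of -0.76 in DKO1 and -1.29 in HCT116. The 100 kb that separate this window from the next, where the gene order places the globin genes, had a mean PC1 of 0.18 in DKO1 and -0.24 in HCT116 over 5 bins. The OR51/OR52/OR56 cluster on their other side lay near the border of the compartments, with means of 0.050 in DKO1 and -0.18 in HCT116 and with 24 and 26 of its 50 bins in B. A stretch at chr11:5400001-5720000 was in A in HCT116, with means of 0.16 in DKO1 and 0.25 in HCT116, and in DKO1 the stretch in A was chr11:5440001-5680000, with means of 0.27 and 0.32. Toward its far end 5 bins at chr11:6120001-6220000 had a mean of 0.35 in DKO1 and -0.60 in HCT116. They were the only run of at least 100 kb in the 13 clusters that took the other sign, and they belonged to a stretch in A in DKO1 that went on to the end of the window, chr11:6120001-6300000, with means of 0.60 in DKO1 and -0.17 in HCT116.

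The OR4/OR5 cluster of chromosome 11 was divided into lobes with unlike differences. Its first lobe, at chr11:57720001-58260000, was below -1 throughout in HCT116, and its means were -1.26 in DKO1 and -1.46 in HCT116. A second lobe at chr11:58520001-58820000 had means of -0.48 in DKO1 and -1.19 in HCT116, a difference of 0.71 against 0.20 in the first. All 25 bins of the cluster below -1 in DKO1 lay in the first lobe. Between the lobes PC1 had a peak near the compartment border, where chr11:58320001-58420000 was in A in DKO1 with a mean of 0.27, against -0.026 in HCT116. The gene order also gives non-receptor genes between 2 receptor arrays here, but without hg19 gene positions the peak cannot be placed on them. The end of the window was in A in both lines, over chr11:59260001-59400000 in DKO1 and chr11:59280001-59400000 in HCT116, with means in the longer stretch of 0.86 in DKO1 and 0.67 in HCT116 and in the shorter of 0.98 and 0.79.

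In the OR8/OR10 cluster, which held the lowest single bin of all clusters in HCT116 at -1.90, 44 of 45 bins were higher in DKO1. Its means were -0.91 in DKO1 and -1.25 in HCT116, and 44 bins were in B in each line. The chromosome 14 cluster had means of -0.34 in DKO1 and -0.69 in HCT116, with 27 of 30 bins in B in each line, and 0 bins in DKO1 but 4 in HCT116 were below -1. The chromosome 17 cluster had means of -0.86 in DKO1 and -1.09 in HCT116. It had 23 of 25 bins in B in DKO1 and all 25 in HCT116, and 21 bins were higher in DKO1. In each of these 3 clusters the ranges of the lines overlapped.

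The OR2 clusters of chromosomes 6 and 7 lay in A over a large part of their length. On chromosome 6, 6 of 30 bins were in B in DKO1 and 12 in HCT116, with means of 0.33 and 0.27. The part nearest GABBR1 in gene order, chr6:29360001-29600000, was in A in both lines, with means of 0.69 in DKO1 and 0.72 in HCT116. In DKO1 2 further stretches were in A, chr6:29000001-29100000 with means of 0.14 in DKO1 and -0.028 in HCT116, and chr6:29160001-29280000 with 0.23 and -0.058, so the changes of sign here were across small distances from 0. On chromosome 7, 10 of 25 bins were in B in DKO1 and 15 in HCT116. The second part of that window was in A in both lines, over chr7:143820001-144100000 in DKO1 and chr7:143900001-144100000 in HCT116. In the shorter stretch the means were 1.30 in DKO1 and 0.37 in HCT116, the largest difference in any of the named stretches in A that both lines shared, and in the longer stretch they were 0.98 and 0.23. The flanks of this cluster were also higher in DKO1, by a mean of 0.42.

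PC1 was higher in DKO1 in most cluster bins, and few bins were in A in DKO1 that were in B in HCT116. Over the 540 bins PC1 was higher in DKO1 in 409, or 75.7%, against 50.6% of all autosomal bins. The mean difference, DKO1 minus HCT116, was 0.22 over the bins and 0.18 ± 0.30 over the clusters (SD, n = 13 clusters), against 0.000305 over all autosomal bins, where the scaling holds the mean of each chromosome at 0. It was above 0 in 11 clusters and below 0 in 2. Subtracting the median of each chromosome moved the median difference of all autosomal bins to 0.13, against 0.0067 on the deposited scale, and 91.1% of cluster bins, against 61.5% of autosomal bins, were then higher in DKO1, with 12 clusters above 0. With a 10 Mb running mean subtracted the shares were 65.7% of cluster bins and 49.8% of autosomal bins, and 11 clusters were above 0, with the OR4/OR5/OR8 cluster at -0.0047 in place of 0.039. Of the 474 bins in B in HCT116, 29 were in A in DKO1, or 6.12%, against 9.5% of all autosomal B bins. Of the 66 bins in A in HCT116, 7 were in B in DKO1, or 10.6%, against 16.6% of all autosomal A bins. The B-to-A bins were 8 in the chromosome 6 cluster, 7 in the OR51/OR52/OR56 cluster, 5 on chromosome 7, 4 in the OR4/OR5 cluster, 3 in the OR51/OR52 cluster and 2 on chromosome 17. The A-to-B bins were 5 in the OR51/OR52/OR56 cluster and 2 on chromosome 6. The other 7 clusters had no bin that took the other sign.

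The difference between the lines varied with the PC1 of a bin in HCT116. Among the autosomal B bins outside the clusters, the mean difference was 0.34 for HCT116 PC1 between -1.8 and -1.6 and -0.22 for PC1 between -0.2 and 0. The clusters were therefore set against all other autosomal B bins of equal HCT116 PC1, in classes of 0.2, with each class weighted by its number of cluster bins. This used 474 cluster bins and 61107 other bins. The mean difference was 0.23 in the cluster B bins and 0.18 in B bins of equal HCT116 PC1. The remainder was 0.048, and over the 13 clusters it was 0.077 ± 0.31 (SD, n = 13 clusters). PC1 was higher in DKO1 in 370 of the 474 cluster B bins, or 78.1%, against 63.6% at equal PC1 and 57.4% of all autosomal B bins. Of the 296 cluster bins below -1 in HCT116, 183 stayed below -1 in DKO1, or 61.8%, against 58.6% at equal PC1 and 66.9% of all autosomal bins below -1. Switching to A was found in 6.12% of the cluster B bins and 6.87% at equal PC1. Without OR51/OR52/OR56, OR4/OR5 or the chromosome 14 cluster the remainder was 0.024, 0.026 or 0.031, and without OR4/OR5/OR8 it was 0.118.

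**Figure D3:**
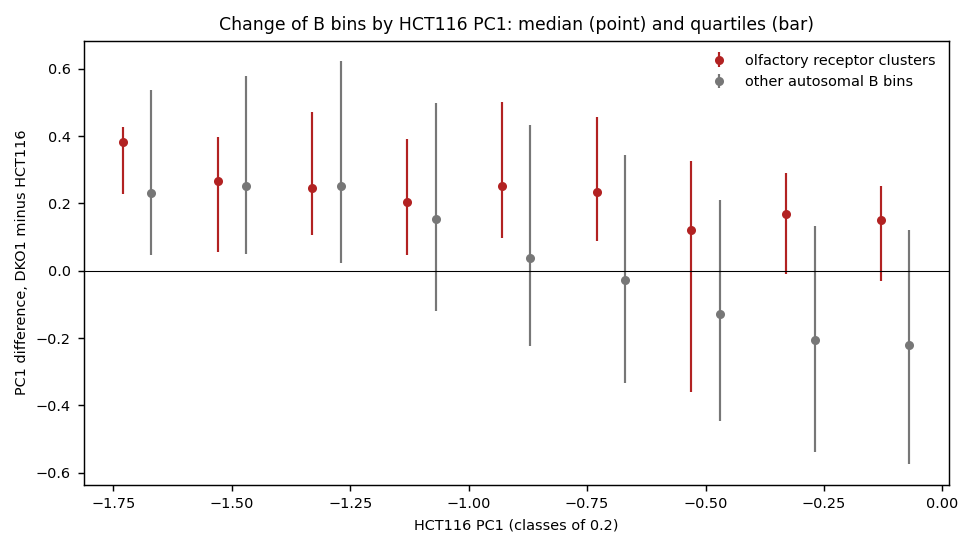
Difference in PC1, DKO1 minus HCT116, of B bins by class of HCT116 PC1 (width 0.2), as median (point) and quartiles (bar), for the cluster bins (red) and the other autosomal B bins (grey). Classes with at least 13 cluster bins are drawn. In the classes below -1 the points of the 2 sets lie within 0.2 of each other, and toward 0 the cluster medians stay above 0 where those of the other bins are below it.

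The comparison differed by class. In the class from -1.6 to -1.4, with 91 cluster bins of 6 clusters, the mean difference was 0.26 in the clusters and 0.35 in other bins. In the class from -1.4 to -1.2, with 117 bins of 8 clusters, it was 0.27 and 0.35. The OR4/OR5/OR8 cluster gave more bins to each of these 2 classes than any other cluster. Its mean difference was 0.039, and 0 of its 80 bins lay above the mean of their class. Class means were not taken for each cluster or without this one, so how far the other clusters shared the lower means was not tested. Nearer to 0 the order was the other way. From -0.4 to -0.2 the mean difference was 0.11 in 26 cluster bins and -0.19 in the other bins, and from -0.2 to 0 it was 0.12 in 25 cluster bins and -0.22 in the other bins. These bins came from 10 and 6 clusters. In the class from -0.6 to -0.4 the clusters were unlike one another, and its 38 bins had a mean of 0.016, a median of 0.12 and quartiles of -0.36 and 0.32.

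Single clusters stood on either side of the B bins of equal HCT116 PC1. The remainder was positive in 10 clusters and negative in 3, and it ranged from -0.54 to 0.46. The highest was that of the OR51/OR52/OR56 cluster, whose 26 B bins had a mean difference of 0.42 where bins of equal PC1 had -0.041. It was followed by chromosome 6 with 0.39, chromosome 7 with 0.37 and chromosome 14 with 0.33. The others were 0.19 for chromosome 12, 0.18 for OR51/OR52, 0.17 for OR4/OR5, 0.081 for OR8/OR10, 0.023 for chromosome 1 and 0.013 for chromosome 17. The negative ones were the OR13 cluster with -0.54, the OR1 cluster with -0.37 and the OR4/OR5/OR8 cluster with -0.30. In the OR4/OR5/OR8 and OR13 clusters 0 of the 80 and 0 of the 15 B bins lay above the mean of their class, and in the chromosome 6 and 7 clusters all 12 and all 15 did.

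With B bins of the same chromosome only, the remainder over all clusters was 0.065 and no cluster changed sign, but that of the chromosome 17 cluster was 0.19 in place of 0.013. With a running mean over 10 Mb subtracted from each track, the classes were formed from the subtracted HCT116 values, so the matching also changed. The remainder over all clusters was then -0.039, and 5 of the 13 clusters changed sign, so that 5 were positive and 8 negative. Those that took the other sign were chromosome 7 at -0.053, OR51/OR52 at -0.28, OR8/OR10 at -0.14, chromosome 14 at -0.11 and chromosome 17 at -0.13. The OR51/OR52/OR56 cluster, the highest before, stood at 0.0059, the OR13 cluster at -0.19 and chromosome 6 at 0.29. The part of such broad differences between the tracks in the results was not tested.

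**Figure D4:**
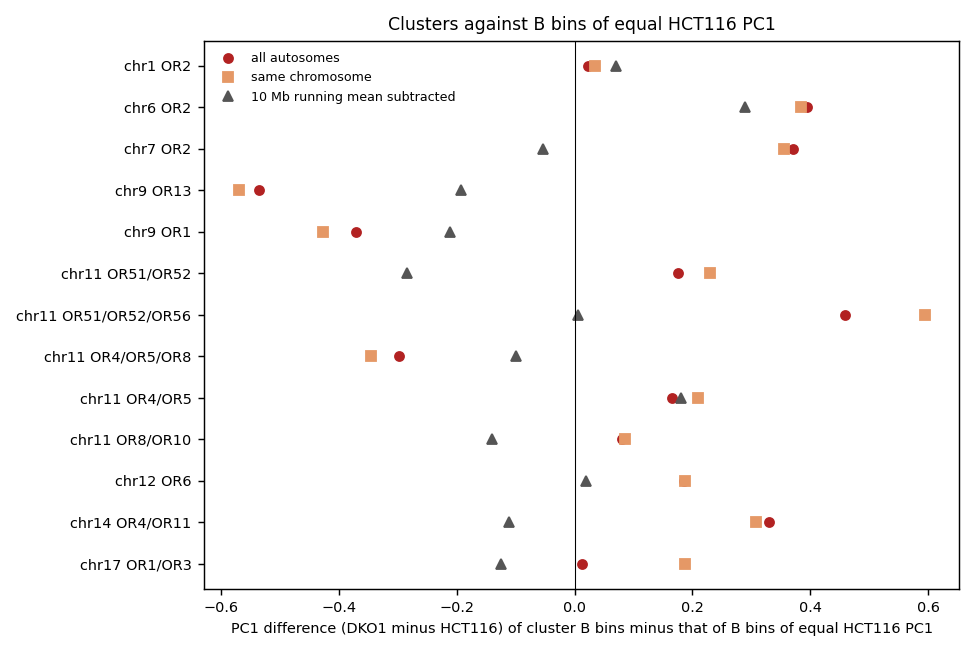
Mean difference in PC1 (DKO1 minus HCT116) of each cluster's B bins minus that of other B bins of equal HCT116 PC1. The reference bins are from all autosomes (circles) or the same chromosome (squares). The triangles use all autosomes with a 10 Mb running mean subtracted from both tracks, and with classes formed from the subtracted HCT116 values. Circles and squares agree in sign for all 13 clusters, and the triangles lie on the other side of 0 in 5.

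Domains are stretches that contact themselves more than their surroundings, and they were listed for the clusters far more often in HCT116. The DKO1 list held 7 domains that overlapped a window and the HCT116 list 26, with a median length of 320 kb in each. The ratio was 26.9%, against 42.5% for the whole lists of 1823 and 4289 domains and 21.8% for domains with a mean HCT116 PC1 below 0. In DKO1 7 clusters were overlapped by no domain, while in HCT116 every cluster was overlapped by at least 1. Of the cluster bins 82 of 540 lay inside a DKO1 domain, or 15.2%, and 376 inside an HCT116 domain, or 69.6%. Over all autosomal bins the shares were 18.7% in DKO1 and 44.4% in HCT116. All 82 cluster bins in a DKO1 domain were also in an HCT116 domain, as were 95.7% of all autosomal bins in DKO1 domains.

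Coverage in HCT116 was also higher than in other B bins at the same PC1. Of the cluster B bins, 12.4% lay inside a DKO1 domain and 70.5% inside an HCT116 domain. At equal HCT116 PC1 the shares were 7.83% in DKO1 and 37.3% in HCT116, and with B bins of the same chromosome 7.0% and 37.6%. In HCT116 11 of the 13 clusters were above the level of their equal-PC1 bins. The 2 below it were the OR4/OR5/OR8 cluster, with 27.5% against 39.7%, and the chromosome 1 cluster, with 21.5% against 40.1%, which also had the lowest mean PC1 in HCT116. In DKO1 only 3 clusters were above that level. The excess of 4.61 percentage points in DKO1 rested on single clusters. It was -0.25 without chromosome 17, 1.63 without the chromosome 9 OR1 cluster, 1.98 without OR51/OR52, 6.96 without OR4/OR5 and 7.08 without OR4/OR5/OR8. In HCT116 the excess lay between 28.5 and 42.3 points whichever cluster was left out. Of the cluster B bins in HCT116 domains 17.7% were also in a DKO1 domain, against 20.4% of other autosomal B bins in HCT116 domains. The number of domains that a caller lists also varies with sequencing depth, and neither map has a known depth here.

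**Figure D5:**
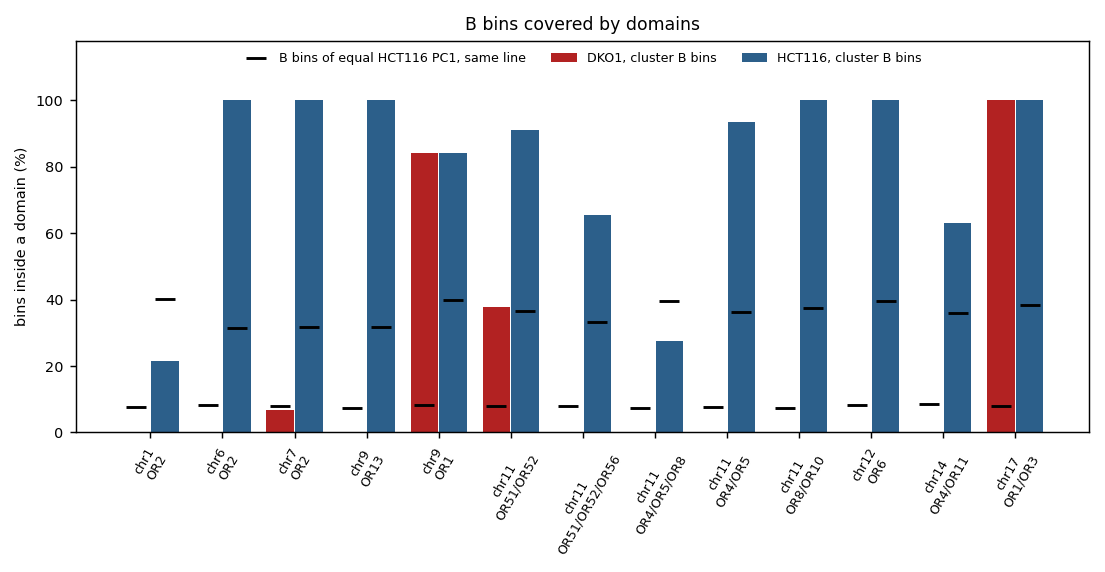
Share of each cluster's B bins (B in HCT116) that lay inside a listed domain, in percent, with DKO1 bars left of HCT116 bars. Black ticks give the share among other autosomal B bins of equal HCT116 PC1 in the same line. HCT116 bars pass their tick in 11 clusters and DKO1 bars in 3.

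Each DKO1 domain of the clusters had a counterpart in HCT116. All 7 had an HCT116 domain with which they shared at least 80% of both lengths, against 83.1% of the whole DKO1 list, and 5 had the same start and end. Of the 26 HCT116 domains 7 were matched, or 26.9%, with a Wilson 95% interval of 13.7 to 46.1 that covers counting error only, against 35.3% of the whole list. Among the 20 HCT116 domains of the clusters with a mean HCT116 PC1 below 0, 3 were matched, or 15%, against 16.8% of all such domains. Among the 6 with a mean above 0, 4 were matched, against 44.1% of all such domains. Boundaries gave the same order, with 10 of 10 DKO1 boundaries inside the windows found in HCT116 within 40 kb, against 91.9% over the whole list. In the other direction 10 of 28 boundaries of HCT116 had one in DKO1, or 35.7%, against 44.7% over the whole list and 24.0% of boundaries in B.

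The 3 domains of low PC1 that both lists held were in the OR1, OR1/OR3 and OR51/OR52 clusters. That of the OR1 cluster, chr9:125240001-125560000, was identical in the lines and covered 320 of the 400 kb of the window, with a mean PC1 of -1.40 in DKO1 and -1.22 in HCT116. That of chromosome 17, chr17:2960001-3440000, was also identical and covered 440 kb of the window, with means of -0.93 in DKO1 and -1.10 in HCT116. In both clusters most of the trough of low PC1 lay inside 1 domain. In the OR51/OR52 cluster the domain was chr11:4160001-4640000 in DKO1 and chr11:4200001-4640000 in HCT116, and the next one in HCT116, chr11:4640001-5120000, which ends before the globin genes, had no DKO1 domain. The 4 matched domains of higher PC1 lay at or across a window's end. They were chr17:2640001-2960000, chr11:124480001-124760000 and chr7:143880001-144160000, identical in both lines, and chr6:29360001-29600000 in DKO1 with chr6:29320001-29600000 in HCT116.

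The remaining HCT116 domains were unmatched in DKO1. The OR4/OR5 cluster held 5 of them, which abutted from chr11:57800001-58280000 through chr11:58280001-58640000, chr11:58640001-58960000 and chr11:58960001-59280000 to chr11:59280001-59560000, and it had 0 domains in DKO1. Of the boundaries among them, that at 58280000 lay within 20 kb of the end of the first lobe of low PC1. The OR8/OR10 cluster likewise was divided in HCT116 into chr11:123600001-123920000, chr11:123920001-124240000 and chr11:124240001-124480000, and in DKO1 it had only the domain that begins at its far end. The OR13 cluster was enclosed in chr9:107200001-107520000 and the OR6 cluster, apart from its first bin, in chr12:55520001-56040000, with chr12:55360001-55520000 covering that bin. Single domains inside otherwise uncovered windows were chr1:247720001-248000000, chr11:56160001-56600000 in the OR4/OR5/OR8 cluster and chr11:5880001-6240000 in the OR51/OR52/OR56 cluster. The others were chr14:20400001-20760000 and chr14:20760001-20960000, chr6:29000001-29320000 and chr7:143560001-143880000.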

How the data were processed

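Hi-C libraries of DKO1 and HCT116, 3 each, were made with a commercial kit, per the labels' protocols. HiC-Pro, HOMER 4.6 and hg19 are named in the submitters' processing notes, with no role for each tool, and the sources used here give neither read filters nor the domain caller. Since the labels give the 3 replicates of a line one common set of files, the replicates were treated as pooled. The deposited PC1 score, in bins of 20 kb, had mean 0 and SD 1 on each chromosome. The deposited domain lists give positions on a 40 kb grid, with no score.

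Bins with a value in both tracks were joined. A bin belonged to a cluster when it lay wholly inside a window, and a domain when it overlapped one. Named stretches are those of at least 100 kb that were in A or took the other sign and, chosen after the values were seen, stretches below -1. Every domain touching a window is named. The clusters and lists were chosen with earlier results of these data known, and the comparison of domain coverage was added after the values were seen. Functions were tested on simulated data. Alternatives covered the zero, smoothing, classes, the bins compared, overlaps and flanks. Python 3.11.15, numpy 2.4.6, pandas 2.3.3, scipy 1.17.1 and matplotlib 3.10.9 were used.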

Additional observations from a re-analysis of the deposited data

How the results depend on the processing

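No paired analysis was possible because the replicates of each line share one common set of files, so replicates could not be left out either. Each cluster was left out in turn instead. Of 109 repeats over the results, 86 stayed close to the reported value, 21 moved and 2 took the other sign. The cause was not tested for any of those that moved. Subtracting the median of each chromosome gave a mean difference of 0.39 in place of 0.22, B-to-A and A-to-B shares of 9.07% and 0.37% of cluster bins in place of 5.37% and 1.30%, and a remainder against bins of equal PC1 of 0.088 in place of 0.048. With only bins at least 0.5 from 0 in both lines, the B share was 95.1% in each line and 0 bins were switched. The remainder was 0.12 with class medians, 0.077 with each cluster counted once and -0.039 with a 10 Mb running mean subtracted. It lay between 0.024 and 0.118 with 1 cluster left out, the lowest without OR51/OR52/OR56 and the highest without OR4/OR5/OR8. The mean difference lay between 0.21 and 0.26. Counting only domains wholly inside a window left 2 in DKO1 and 15 in HCT116. The excess of domain coverage lay between -0.25 points (without chromosome 17) and 7.08 points (without OR4/OR5/OR8) in DKO1 and between 28.5 and 42.3 in HCT116, and with all chromosome 11 clusters left out it was 12.6 points in DKO1. The coverage repeats, the equal weighting of clusters and the per-cluster repeats with another zero were chosen after seeing the data. No domain of the clusters was longer than 2 Mb.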
